A study of Oryza sativa with 19 samples.

Results

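The probes described here were those whose signal was low in callus of rice and high, at a similar level, in shoot, root and panicle of the same cultivar. They were 98 of the 33360 probes designed on full-length cDNA (FL-cDNA) loci, among 84068 probes of all kinds, and they stood for 73 of 20404 such loci. A probe was taken when its mean signal in callus of the japonica cultivar Nipponbare (NB) was 3 or more log2 units, which is 8-fold, below its mean in each of NB shoot, NB root and NB panicle, while these 3 means lay within 2 log2 units (4-fold) of each other. The NB signals therefore chose the probes, and their NB values are given as a description without a test.

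Callus is a mass of little-differentiated, dividing cells that forms when plant tissue is kept on a medium with auxin, and in rice it is the usual starting material for transformation and regeneration. It has no leaves, roots or flowers. In such samples fewer cells of a type and less RNA per cell cannot be told apart.

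The samples were NB callus, IR64 shoot (IR64 being an indica cultivar), NB shoot, NB root and NB panicle, without any mutant or transgene. Callus had started from the scutellum of the seed and was kept for 28 days at 30 °C in light for 24 hours a day on a medium with the auxin 2,4-D. Shoots and roots were from seedlings of 10 days per the labels (the study's methods give an older age for shoots), with roots kept at 28 °C and 16 hours of light, and panicles were at the late-boot stage. RNA of several plants was pooled, and the arrays of a group may be repeat hybridizations of 1 pool, so the SD and p-values measure the spread between arrays, which may be technical. Tissue, culture conditions and, as the labels and methods differ on it, extraction kit cannot be told apart. The files named no gene for a probe and no probe could be matched to a gene symbol, so the tissue labels could not be set against marker genes.

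Each array carried Cy3- and Cy5-labelled RNA of the same sample. There were 2 designs with different probes, S1 with 10 arrays and S2 with 9, and each group had 2 arrays per design except NB panicle, which had 1 on S2. Signals were scaled to a median of 1000 (9.97 on the log2 scale), capped at 100000 (16.61) and averaged over both channels as log2. All values below are on this scale, and no probe's level is set against another's. The median background-subtracted signal of an array lay between 54.75 and 167 on S1 and between 37.51 and 178.7 on S2. It was highest on the first NB callus array of both designs, at 167 and 178.7, while the second had 100.2 and 44.87.

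Of the 98 probes, 47 were on S1 and 51 on S2. A name such as R07-00458R_C gives the chromosome (07), a serial number of the locus, its strand (F or R) and C for the probe common to its transcripts, and 68 of the probes were of this kind. The other 30 had names starting with E5, which are further probes along a locus. Across the 98, the gap between callus and the nearest of the 3 other NB tissues had a median of 3.73, with a lowest value of 3.01 and a highest of 7.65. The callus group mean had a median of 10.01, against 14.70 in shoot, 14.35 in root and 14.12 in panicle. On every one of the 98 probes, each callus array lay below each of the other NB arrays, a pattern that 7.95% of all 72985 tested probes showed, and the rule that chose the probes favours it.

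**Figure D1:**
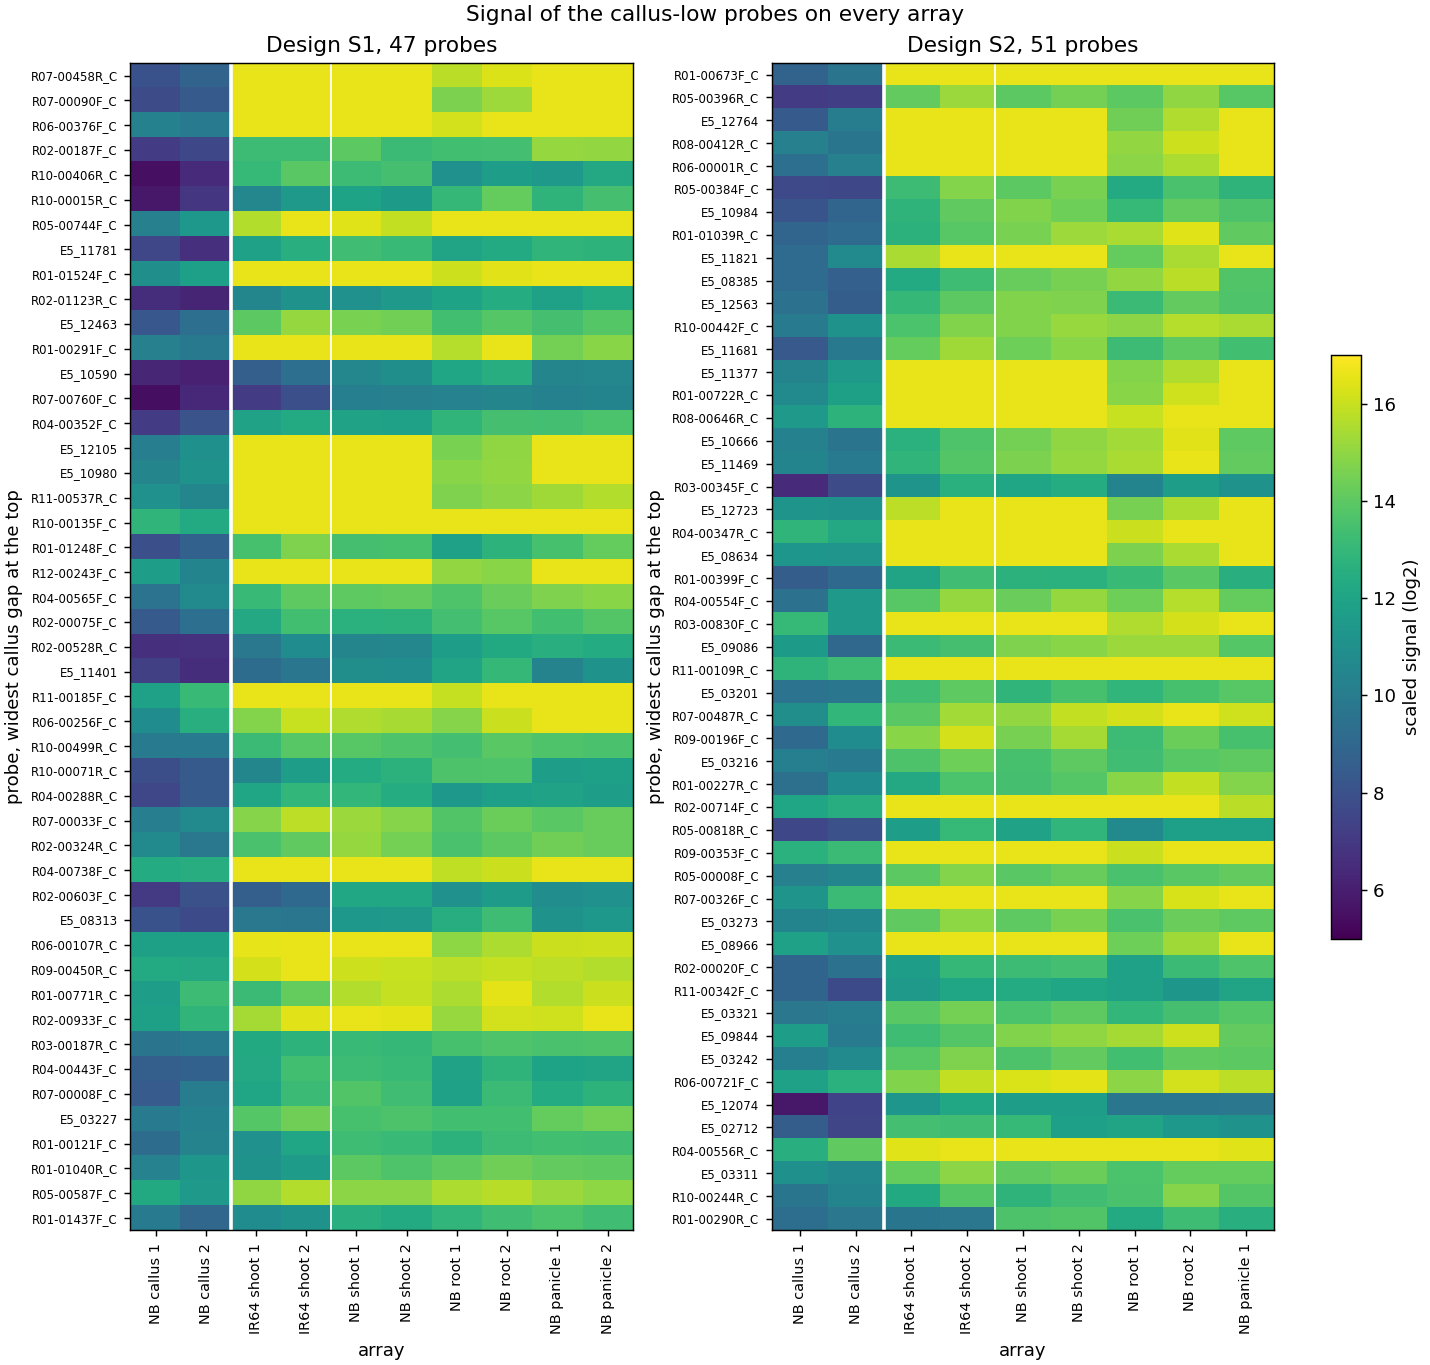
Scaled signal (log2, colour) of the 98 callus-low probes (rows, ordered by callus gap) on every array (columns) of designs S1 and S2. The 2 NB callus columns are the darkest in each row apart from a few in which the IR64 shoot columns are nearly as dark, such as R01-00290R_C, with 9.64 and 9.76 in IR64 shoot beside 9.33 and 9.74 in callus.

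With the cap, the widest gap was that of R07-00458R_C on chromosome 7. It had 8.01 and 8.84 on the callus arrays, against 16.61 and 16.61 in shoot, 15.77 and 16.39 in root and 16.61 and 16.61 in panicle. Callus was thus 7.65 below root, the nearest tissue, and shoot and panicle were at the cap. R01-00673F_C, on chromosome 1, had 8.84 and 9.60 in callus and stood at the cap of 16.61 on every shoot, root and panicle array, so its gap of 7.39 was set by the cap. Without the cap its gap was 8.32, the widest of the 98, beside 7.65 for R07-00458R_C. The uncapped ranges over shoot, root and panicle were 2.61 for R01-00673F_C and 3.715 for R07-00458R_C, both above the limit of 2. R07-00090F_C had 7.73 and 8.39 in callus, against 16.61 and 16.61 in shoot, 14.64 and 15.25 in root and 16.61 and 16.61 in panicle. Its gap was 6.88, again set by root, and its uncapped range was 4.82, also above 2.

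R05-00396R_C was below the cap in every tissue. It had 7.07 and 7.23 in callus, against 13.98 and 14.51 in shoot, 13.96 and 15.00 in root and 13.88 in panicle, so that its gap of 6.73 did not rest on the cap, although it was above background on 1 callus array only. R02-00187F_C was likewise below the cap, and likewise above background on 1 callus array only. It had 7.14 and 7.62 in callus, against 13.98 and 13.16 in shoot, 13.37 and 13.41 in root and 15.11 and 15.06 in panicle. In both probes the callus arrays were the lowest and the other tissues did not reach down to them. R06-00376F_C (gap 6.26), E5_12764 of locus R12-00242F (5.74), R08-00412R_C (5.61) and R06-00001R_C (5.42) had their lowest other tissue in root. Their uncapped ranges were 3.34, 5.18, 4.45 and 4.82, all above 2. R10-00406R_C had 5.47 and 6.43 in callus, not above background on either array, against 13.23 and 13.44 in shoot, 11.09 and 11.66 in root and 11.51 and 12.25 in panicle, and its measured gap of 5.42 is not an exact one.

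Callus was well above background on both arrays for 77 of the 98 probes, on 1 array for 13 and on none for 8, whereas shoot, root and panicle were well above background on every array for all 98. For a probe not above background in callus only a lower bound can be given. For each callus array it takes the higher of the probe's own signal and the lowest signal of any spot well above background there. R10-00015R_C was at least 27.8-fold higher in shoot, its nearest tissue, with measured means of 6.35 in callus and 11.76 in shoot. R10-00406R_C was at least 21.4-fold higher in root, and R02-01123R_C at least 20.02-fold higher in shoot. The smallest such bound was that of E5_12074, at least 4.82-fold higher in root, which is less than the 8-fold of the rule. The 3 probes with the widest gap among those above background on both callus arrays were R07-00458R_C, R01-00673F_C and R07-00090F_C.

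**Figure D2:**
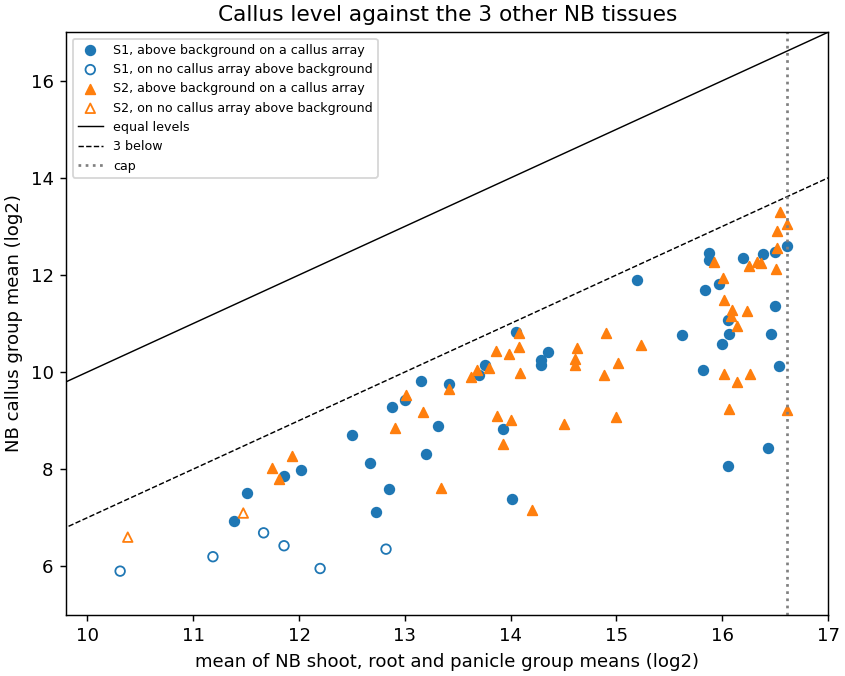
Mean signal in NB callus (y, log2) against the mean of the NB shoot, root and panicle group means (x, log2) for the 98 probes, with lines for equal levels and for 3 below, and the cap at 16.61. Open symbols are the 8 probes not above background on any callus array, and the points gathered at the right edge are probes at or near the cap.

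The similar level in shoot, root and panicle was in part set by the cap. On 32 probes, from 26 loci, every array of at least 1 of these tissues was at the cap, and on 3 probes (R01-00673F_C, R10-00135F_C and R11-00109R_C) every array of all 3 was. Without the cap, 28 of the 98 probes, from 22 loci, had a range over shoot, root and panicle above 2 and would not have been chosen, with the highest mean in shoot on 23, in panicle on 5 and the lowest in root on 25. For E5_12764 the uncapped means were 9.24 in callus, against 20.16 in shoot, 14.98 in root and 17.43 in panicle, a range of 5.18. R06-00001R_C had uncapped means of 9.79 in callus, against 20.03 in shoot, 15.21 in root and 17.82 in panicle. In contrast, R11-00109R_C had 13.05 in callus, against 19.69, 19.56 and 18.95 in shoot, root and panicle without the cap, a range of 0.75. A spot saturated in the scanner was present on a shoot, root or panicle array for 19 of the 98 probes. The uncapped shoot mean of E5_12764, 20.16, was also that of R01-00673F_C and R04-00347R_C, so it may be the scanner's limit. An uncapped level with saturated spots is a lower bound, and the range of E5_12764 may be wider than given.

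With the cap, root was the lowest of the 3 tissues on 53 probes, panicle on 25 and shoot on 17, with a tie on 3. On S2 the panicle mean was 1 array of replicate 1, while shoot and root averaged both replicates. The gap, range and order on S2 carry this imbalance, and its part was not tested. R01-00290R_C, with panicle counted lowest, had 12.55 in panicle, against 12.33 and 13.26 in root. Shoot was the highest on 29 probes, root on 24 and panicle on 16, and 29 had more than 1 tissue tied at the cap.

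The SD between replicate arrays, pooled over the NB groups, was 0.09 for R09-00450R_C and 0.13 for R03-00187R_C, both below the cap on every NB array. For R04-00738F_C it was 0.08, but its shoot and panicle arrays were all at the cap, which sets their SD to 0. The pooled SD was largest for E5_09086 (1.03), R04-00554F_C (1.01) and R07-00326F_C (0.99). E5_09086 had 11.52 and 9.001 on the callus arrays, the widest split among these 3. The second callus array was above the first on 66 of the 98 probes, with a median difference of 0.50. Over all tested cDNA-locus probes that difference was 0.61 on S1 and 0.80 on S2, and the second callus array was the dimmer one on both designs. The part of this in the gaps was not tested. With only the arrays of replicate 1, which were scanned on 3 days, 87 of the 98 kept a gap of 3 or more, and with only those of replicate 2, scanned on 1 day, 88 did (without panicle on S2). In Cy3 alone 94 did and in Cy5 alone 96. The rule used the means of these same arrays and channels, so these counts only describe the list.

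Near the limit of 3, R01-01437F_C on S1 and R01-00290R_C on S2 were just inside, both with a gap of 3.01, followed by R05-00587F_C (3.01), R01-01040R_C (3.03), R01-00121F_C (3.15) and E5_03227 (3.23) on S1 and R10-00244R_C (3.02), E5_03311 (3.07), R04-00556R_C (3.10) and E5_02712 (3.11) on S2. Just outside were R01-00195R_C (2.97), R01-00257F_C (2.96), E5_03739 (2.91), R01-01336F_C (2.91) and R04-00852R_C (2.90) on S1 and E5_10573 (2.97), R04-00285F_C (2.95), R04-00712R_C (2.94), E5_10913 (2.93) and E5_03184 (2.92) on S2. For the range, R02-00528R_C (1.97), R10-00406R_C (1.96), R10-00071R_C (1.93), R01-00291F_C (1.91) and E5_12105 (1.82) on S1 and E5_12074 (1.97), E5_11469 (1.90), E5_10666 (1.89), R01-01039R_C (1.88) and E5_08966 (1.78) on S2 were just inside. R12-00270F_C (2.01), R05-00484R_C (2.04), R09-00355F_C (2.04), R05-00314F_C (2.04) and R04-00607F_C (2.06) on S1 and R05-00551F_C (2.07), E5_07580 (2.12), E5_07897 (2.12), R03-00910F_C (2.21) and E5_09772 (2.21) on S2 were just outside. Another 51 probes on S1 and 39 on S2 met the gap and not the range.

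Several loci were represented by more than 1 probe, because the arrays carried up to 10 cDNA-locus probes along one locus, spread over both designs. Probes of one locus share their target and are not independent. Of the 73 loci, 66 had 1 chosen probe and 7 had more, which together held 32 of the 98 probes, and 4 loci had chosen probes on both designs. In locus R05-00008F, 8 of the 10 E5 and common probes were chosen. Their gaps ran between 2.89 and 3.55, so the 2 left out missed the limit narrowly, whereas the variant probe R05-00008F_S1 had a gap of 0.19. In R01-01039R all 6 probes were chosen, with gaps between 3.30 and 5.02, and in R02-00324R all 4, with gaps between 3.53 and 5.06. All 3 probes of R07-00033F were chosen, with gaps between 3.61 and 4.78.

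In R01-00722R, 6 of 10 probes were chosen, and gaps ran between 1.96 and 4.25. The 4 not chosen were consecutive in the order of the number that ends each probe's annotation entry, from 306 to 337. Their callus means were 12.33, 12.42, 12.53 and 12.14, with gaps of 1.96, 2.53, 2.88 and 2.97. Shoot and panicle were at the cap on all 10 probes. In R03-00544F all 8 probes had a gap of 3 or more, between 3.34 and 4.87, and 6 were left out because their range passed 2. R05-00090R had 3 chosen probes of 10. Of the 7 others, 5 had gaps between 3.06 and 4.17 and were left out by their range, which lay between 2.11 and 2.46, and 2 had gaps of 2.28 and 2.89.

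R10-00351R was unlike these. It had 10 probes, of which E5_02712 was chosen with a gap of 3.11, and the other 9 had gaps between 0.19 and 2.69. E5_02712 had 8.54 and 7.499 in callus, against 13.03 and 11.80 in shoot, 11.99 and 11.40 in root and 11.12 in panicle. A gap of 3 or more was thus seen at 1 of its 10 probes.

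**Figure D3:**
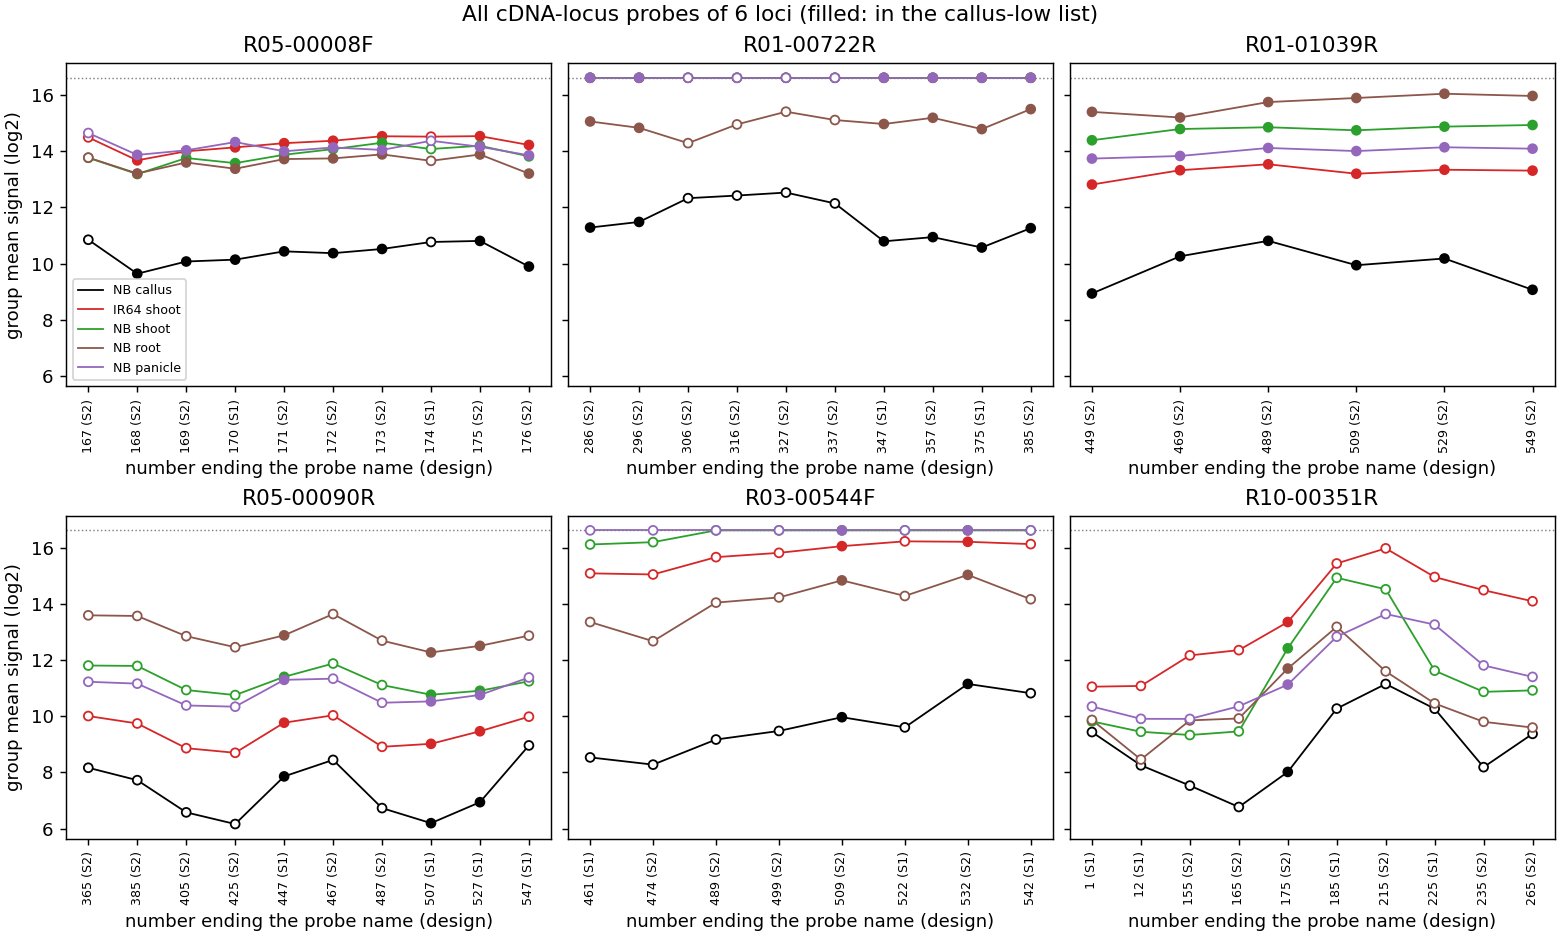
Group mean signal (log2, y) of every E5 and common probe of 6 loci in NB callus, IR64 shoot, NB shoot, NB root and NB panicle, with filled points for the chosen probes and the cap dotted. Probes are ordered by the number ending their annotation entry (x, design in brackets), which the axis label calls the number ending the probe name. Levels of different probes are not to be compared, but NB callus lies lowest at every such probe of the 6 loci. In R10-00351R it comes within 0.19 of the lowest other NB tissue at its closest probe.

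There were 52 other probes at 18 of the loci, namely 35 E5 probes, 5 common probes and 12 probes specific to a transcript variant. Callus lay below shoot, root and panicle on 50 of the 52, and by 3 or more on 18, all with a range above 2. For the E5 and common probes among these 18 that range was fixed by the rule, since only the range kept them out of the list. Variant probes are not cDNA-locus probes. Without them, callus was below on all 35 E5 and all 5 common probes, compared with 24.2% of the 31876 tested cDNA-locus probes. It was 3 or more below on 14 E5 and 2 common probes, compared with 0.59% of the tested cDNA-locus probes. The 35 E5 and 5 common probes came from few loci, with 9 at R10-00351R and 7 at R05-00090R, and probes of 1 locus are not independent. The 52 probes measure the same tissues that chose the loci and may come from the same RNA, so this is a description. The E5 probes had a median gap of 2.89, against 0.80 for the probes specific to a variant. Of the 12 variant probes 2 had callus 3 or more below, R02-00714F_S1 (gap 4.36) and R10-00071R_S2 (3.82).

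Some variant probes differed sharply from the common probe of their locus. R01-00673F_S1, a variant probe, had a gap of 0.35 with a mean of 11.53 in callus, against 12.96 in shoot, 11.87 in root and 12.99 in panicle, while the common probe of the locus, R01-00673F_C, had a gap of 7.39 with the cap. R07-00760F_S1 had means of 10.03 in callus, 9.88 in shoot and 9.98 in root, with 10.23 in panicle. There R07-00760F_C, not above background in callus, was at least 9.48-fold higher in shoot. The arrays of R07-00760F_S1 were split, at 11.40 and 8.66 in callus, 10.48 and 9.29 in shoot and 10.68 and 9.27 in root. Its callus was the highest NB tissue on replicate 1 and the lowest on replicate 2, which had no panicle array. That variant probe was above background on 1 of the callus arrays, as was R05-00818R_S1. R05-00818R_S1 had a callus level within the range of the other tissues, at 7.28, against 7.12 in shoot, 7.67 in root and 6.54 in panicle. It was above background on no shoot or panicle array and on 1 root array, so nothing is read from these values. On R12-00243F_S1 shoot stood apart, with 8.45 in callus, against 16.19 in shoot, 9.05 in root and 10.21 in panicle.

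The 73 loci lay on all 12 chromosomes. Chromosome 1 held 13, which is 17.8% against 14.6% of all loci, chromosome 10 held 9 (12.3% against 5.2%) and chromosome 3 held 4 (5.48% against 13.2%). By strand letter 42 were F and 31 were R. These are descriptions of a short list and have no test. In 2 cases the next serial number on the same strand was also in the list, R01-01039R with R01-01040R and R12-00242F with R12-00243F. At R01-01040R, 1 of 5 probes was chosen (gap 3.03) and the other 4 had gaps between 0.99 and 2.16, lower than those of all 6 probes of R01-01039R.

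IR64 shoot was not used by the rule. Both of its arrays lay above both NB callus arrays on 95 of the 98 probes (32.6% of all tested probes). The rule chose these probes for low callus values, so nothing is read from this share. The exceptions were R01-00290R_C, R01-01040R_C and R01-00771R_C, which had 13.20 and 14.17 in IR64 shoot beside 11.70 and 13.22 in callus. IR64 shoot was above background on both arrays for 97 probes, and the exception was R07-00760F_C, above background on neither, as were 1.63% of all probes above background on every NB shoot array. On 82 of the 98 the IR64 mean was 3 or more above callus, and on 16 it was less. No share over all tested probes is given for this, and the rule chose low callus values, so nothing is read from it.

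IR64 shoot was compared with NB shoot probe by probe with limma over all 5 groups, with Benjamini-Hochberg adjustment over all tested probes of a design. One side of this contrast, NB shoot, also chose the probes. Of the 98, 6 (of 5 loci) were lower in IR64 shoot at an adjusted p below 0.05, and 0 were higher. The 6 were 5 on S1 and 1 on S2. With scan day as a block 3 were called, and R01-01040R_C, E5_08313 and E5_10590 were not (limma adjusted p = 0.0506, 0.0513 and 0.0901). Over all tested probes, 2.09% were called lower in IR64 on S1 and 0.573% on S2, and 0.703% on S1 and 0.0498% on S2 were called higher. The median difference, IR64 minus NB shoot, was -0.01, and 27 probes had a difference of 0 because both shoots were at the cap on every array. Without those 27 the median was -0.36 with 50 probes below 0 and 21 above. The median over the tested cDNA-locus probes, likewise without those at the cap in both shoots, was -0.02 on S1 and -0.05 on S2, and over all tested probes it was 0.03 on both. The probes were designed on Nipponbare cDNA, so less transcript and weaker pairing of IR64 RNA with a probe cannot be told apart.

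**Figure D4:**
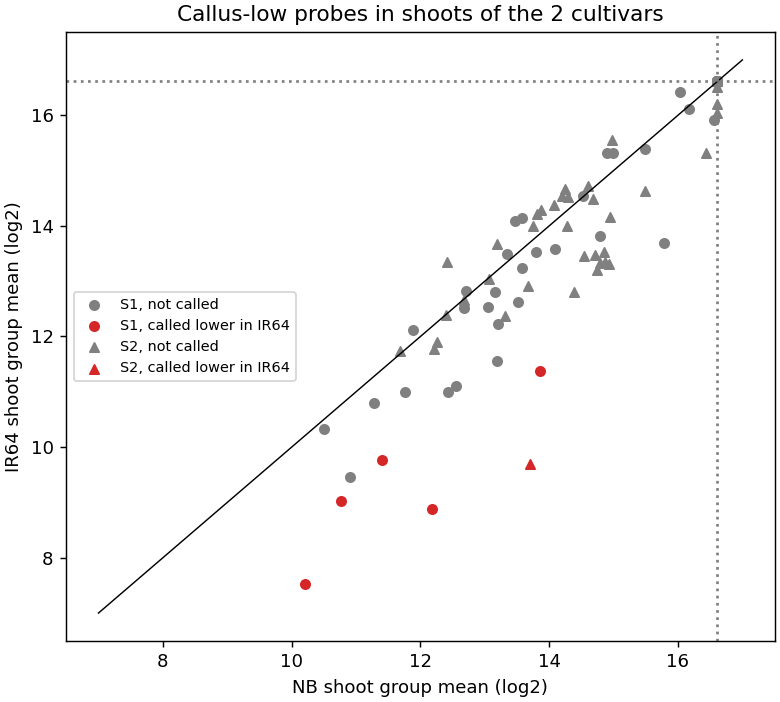
Mean signal in IR64 shoot (y, log2) against NB shoot (x, log2) of the 98 probes, with the line of equal levels and the cap of 16.61 dotted on both axes. The 6 probes called lower in IR64 shoot (red) have differences, IR64 minus NB shoot, of -3.995 to -1.63, and most others lie within 1 of the line.

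R01-00290R_C showed the largest difference. It had 9.64 and 9.76 in IR64 shoot, against 13.67 and 13.72 in NB shoot, and had a difference of -3.995 (SE 0.44, limma adjusted p = 0.0122), at about the level of NB callus (9.33 and 9.74). R02-00603F_C had 8.65 and 9.10 in IR64 shoot, against 12.22 and 12.16 in NB shoot (difference -3.31, SE 0.38, limma adjusted p = 0.00143). R07-00760F_C had 7.14 and 7.92 in IR64 shoot, against 10.18 and 10.22 in NB shoot, and as it was not above background in IR64 shoot it was at least 5.26-fold higher in NB shoot (limma adjusted p = 0.00489). In each of these the IR64 arrays did not overlap the NB shoot arrays.

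R01-01040R_C had 11.16 and 11.59 in IR64 shoot, against 14.00 and 13.71 in NB shoot (difference -2.48, SE 0.38, limma adjusted p = 0.00696). Its 4 neighbours along the locus also had lower means in IR64 shoot, and E5_11508 was called lower (difference -1.69, limma adjusted p = 0.0143). In R05-00090R, E5_10590 had 8.65 and 9.38 in IR64 shoot, against 10.55 and 10.98 in NB shoot (difference -1.75, SE 0.34, limma adjusted p = 0.0273). E5_08313 of the same locus, the sixth probe called and named after its values were seen, had 9.82 and 9.71 in IR64 shoot, against 11.38 and 11.42 in NB shoot (limma adjusted p = 0.0291). The mean was lower in IR64 on all 10 probes of R05-00090R, with differences between -2.20 and -1.26, each at an unadjusted p below 0.05. Without NB shoot replicate 1, NB shoot replicate 2 or IR64 shoot replicate 1, 1 of the 98 probes was called.

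The locus R10-00351R went the other way. All 10 of its probes had higher means in IR64 shoot than in NB shoot, by 0.61 to 3.62, and 3 were called higher, E5_03396 (3.33, limma adjusted p = 0.00457), E5_03529 (3.62, limma adjusted p = 0.0424) and E5_03993 (3.17, limma adjusted p = 0.0224), which were chosen after their values were seen. The chosen probe E5_02712 differed by 0.93 and was not called (SE 0.57). The 10 E5 and common probes of R05-00008F had means 0.23 to 0.72 higher in IR64 shoot, none of them called (limma, lowest adjusted p = 0.774; 0 at an unadjusted p below 0.05).

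Among cDNA-locus probes outside the list, those whose pattern over the arrays was most like the mean of the chosen probes were, on S1 over 10 arrays, E5_11337 (Pearson r = 0.995), R01-01049R_C (0.99), R10-00016F_C (0.99), R02-00085R_C (0.987) and R01-00602R_C (0.985). On S2, over 9 arrays, they were E5_04777 (0.99), R04-00285F_C (0.988), E5_01896 (0.985), E5_06112 (0.985) and R03-01183R_C (0.983). The arrays of a group may share their RNA, and r ignores the size of a change. E5_11337 had 8.01 in callus, against 11.03 in shoot, 10.71 in root and 11.04 in panicle, a gap of 2.70, whereas R01-01049R_C had 16.16 in callus and the cap in every other NB tissue, a gap of 0.45.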

How the data were processed

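Total RNA of 5 tissue groups was hybridized to 2-colour Agilent arrays, with 1 sample in both channels. Per the file headers the authors used Feature Extraction 8.1.1.1 (the labels name 7.5), and the deposited signal intensity is background-subtracted and dye-normalized within an array. A spot was well above background at p 0.01 and 2.6 SD. Intensities were scaled, capped and averaged as in the report. The rule was applied to all spots. The limma fit (3.58.1, R 4.3.3; lmFit, eBayes, 5 groups, no covariate, each design apart) left out spots flagged as outliers, of which the 98 probes had none, and control spots, and took the 36868 probes on S1 and 36117 on S2 above background on every array of at least 1 group. The fit was tested on simulated data. Array number limits the precision.

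Named probes were the 10 with the widest gap, 5 with the highest mean (an order set by the cap and not given), 5 on either side of each limit and design, up to 5 called in IR64 shoot per direction, up to 10 with another probe, 3 of least and of most spread, up to 3 each above and not above background in callus, and the 5 most alike per design. The members and lists were chosen with earlier results of these data known. The deposited probe sequence column held no sequence, the deposited series-wide ratio tables were not used, and the marker list by gene symbol could not be used, as 0 identifiers matched. Alternatives were scaling, background correction, cap, channel, filter, flags, limits, replicate or scan-day block and leaving out arrays.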

Additional observations from a re-analysis of the deposited data

How the results depend on the processing

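With a gap of 2 there were 246, with a gap of 4 there were 36, with a range of 1 there were 46 and with a range of 3 there were 149, against 98. With normexp, loess and Aquantile there were 29, of which 23 were shared with the 98, and the measured gap of R10-00406R_C was 2.29; this setting changed background correction and normalization together, and the cause was not tested. Without the cap there were 72, of which 70 were shared. With 75th percentile scaling there were 79, of which 68 were shared, and with outlier spots left out 99. Leaving out 1 replicate number of 1 NB group at a time, on each design that had it, gave 92 to 130 probes. The highest was without NB callus replicate 2. Without NB panicle replicate 1 the rule could not be applied on S2. On S1, replicate 1 arrays alone gave 59 and replicate 2 arrays alone 43, against 47 (chosen after seeing the data). All 98 had callus arrays below the other NB arrays under each scaling, background correction, cap, channel and left-out replicate tried. Under these settings 95 to 98 had IR64 shoot above callus. The rule used these NB values, and leaving out an array or lifting the cap could not break the NB order. Nothing is read from it.

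The 6 calls in IR64 shoot were 10 with normexp, loess and Aquantile, 3 with scan day as a block (R01-00290R_C, R02-00603F_C and R07-00760F_C) and 0 with only the shoot groups, where fewer arrays estimate the spread. With the replicate block 11 were called. Deviations of arrays with the same number correlated at 0.115 to 0.637 between groups on S1 and 0.548 to 0.828 on S2, but the labels say nothing of what a number shares. Leaving out 1 replicate number of 1 group, on each design that had it, gave 1 to 8 calls. Each of the 6 stayed lower in IR64 under every alternative. The median difference lay between -0.446, without IR64 shoot replicate 2, and 0.025, with scan day as a block. The few arrays and the cap limit what these values can show.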
